A study of Homo sapiens with 22 samples.

Results

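Imprinted genes are transcribed mainly from the copy inherited from 1 parent, under marks of DNA methylation that are set in the germ line, kept through the divisions of somatic cells and placed at CpG-rich control regions of gene clusters. They act in fetal growth, placenta, metabolism and brain, and a change of their dosage is a known concern in cultured pluripotent stem cells. The 9 genes described here were chosen by name as a set: H19, MEG3, DLK1, PEG3, PEG10, MEST, SNRPN, NNAT and CDKN1C. Of the 9, 8 have a row among the 33694 genes of the tables, and H19 was not analysed here. A count of unique molecular identifiers (UMIs, 1 per captured RNA molecule) does not tell the parental copies apart, so each value below is the sum of both alleles.

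The cells were BJ fibroblasts, an established human line from newborn foreskin, reprogrammed in microfluidic channels towards pluripotency by repeated transfection of synthetic mRNAs for POU5F1, SOX2, KLF4, MYC, LIN28 and NANOG. D0 cells were the control, taken ahead of any transfection, and cells labelled mRNA transfections were taken at D3, D5, D7, D9, D11, D13 and D15, where D is the day. In the paper's protocol transfection ended ahead of D9, and from D9 the cells were in pluripotency medium. The step from D7 to D9 thus spans both changes, and their parts cannot be told apart. Cells of every day were frozen and thawed ahead of droplet sequencing of RNA 3′ ends. Each day had 2 pools, A and B, each of cells joined from 4 chips, and 6 of the 16 pools were sequenced as 2 aliquots, so that there were 22 libraries. All cells descend from 1 line, and the spread between pools therefore measures parallel chips, with their thawing and library preparation, and not donors.

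After filtering, 41975 of 44197 cells remained, 571 to 6142 per pool, with pool totals of 33181614 to 180056814 UMIs and a median of 23717 to 80168 UMIs per cell, so that pools of the same day could differ in depth. Of 14 fibroblast genes such as COL1A1 and LUM, all were found, with a summed level of 32232 to 33203 counts per 1000000 UMIs (CPM) on D0 and 2356 to 2985 CPM on D15. Of 14 developmental genes such as L1TD1 and DPPA4, 13 had a row, with a summed level of 49.4 to 50.1 CPM on D0 and 4204 to 4555 CPM on D15. Summed levels of marker lists of other cell types on D0 and on D15 were 93.5 to 98.2 and 19.3 to 33 CPM for 8 trophoblast genes (211 to 222 CPM on D11), 293 to 304 and 108 to 114 CPM for 5 epidermal genes, 1.45 to 1.69 and 22.3 to 31.2 CPM for 5 endothelial genes, 1.58 to 1.81 and 7.62 to 8.33 CPM for 5 immune genes, and 0.496 to 0.57 and 25.8 to 29.4 CPM for 4 melanocyte genes. Of these, 3 trophoblast (HLA-G, VGLL1, CGB5), 4 epidermal (KRT5, KRT14, KRT1, DSG3), 3 endothelial (VWF, CDH5, PECAM1), 2 immune (CD3E, LYZ) and 3 melanocyte genes (MLANA, TYR, DCT) were below 1 CPM in every pool, and the part of such cells in the results below was not tested. Across libraries, 1091 cell barcodes were shared, where 1100 would be shared by drawing barcodes independently.

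The 8 genes lie in 7 clusters, and coordinates are those of the GRCh38 build. SNRPN (ENSG00000128739, chr15:24823637-24978723, plus strand) codes for SmN, a core protein of the splicing machinery, and stands in the Prader-Willi cluster of the long arm of chromosome 15, where the paternal copy is active. NNAT (ENSG00000053438, chr20:37521206-37523690, plus strand) codes for the small membrane proteolipid neuronatin and lies within an intron of BLCAP. MEST (ENSG00000106484, chr7:130486171-130506465, plus strand) codes for a hydrolase of mesoderm and is paternally expressed. DLK1 (ENSG00000185559, chr14:100725705-100738224, plus strand) codes for a Notch-related membrane protein that restrains adipocyte differentiation, and its neighbour MEG3 (ENSG00000214548, chr14:100779410-100861031, plus strand) is a long noncoding RNA from the maternal copy. CDKN1C (ENSG00000129757, chr11:2883213-2885775, minus strand) codes for p57, an inhibitor of cyclin-dependent kinases. PEG10 (ENSG00000242265, chr7:94656325-94669695, plus strand) is a retrotransposon-derived gene needed in placenta, and PEG3 (ENSG00000198300, chr19:56810077-56840728, minus strand) codes for a zinc finger protein.

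Windows ahead of a RefSeq start are shown for 3 of these genes, the 3 for which the reference used here holds one. All 3 windows lie within the gene spans given above and not ahead of them. They are shown because CpG dinucleotides, printed here in capitals as CG, are the bases that carry imprinting marks. Each window holds 190 bases, from 250 to 61 bases before a RefSeq start (build GRCh38.p14), 5′ to 3′ on the gene's plus strand. Of the starts listed for each gene, 4 for SNRPN, 5 for MEST and 3 for MEG3, the one with the most CG letters in a window free of annotated exons was taken.
SNRPN, chr15:24954737-24954926: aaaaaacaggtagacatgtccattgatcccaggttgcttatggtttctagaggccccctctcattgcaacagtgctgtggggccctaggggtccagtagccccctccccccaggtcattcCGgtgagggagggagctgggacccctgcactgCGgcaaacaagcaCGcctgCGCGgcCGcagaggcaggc
MEST, chr7:130491835-130492024: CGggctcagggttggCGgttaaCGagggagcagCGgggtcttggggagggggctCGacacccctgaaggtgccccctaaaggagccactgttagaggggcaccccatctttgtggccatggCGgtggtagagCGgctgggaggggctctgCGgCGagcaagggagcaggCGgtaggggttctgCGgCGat
MEG3, chr14:100825858-100826047: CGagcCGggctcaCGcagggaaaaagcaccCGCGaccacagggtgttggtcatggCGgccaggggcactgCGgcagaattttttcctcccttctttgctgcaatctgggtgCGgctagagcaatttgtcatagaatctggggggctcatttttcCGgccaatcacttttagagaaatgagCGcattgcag
The SNRPN window holds 6 CG, the MEST window 12 and the MEG3 window 10, and 54.7%, 38% and 43.5% of all 35116 RefSeq windows of the same length and place held as many or more. The median window holds 7, so these windows are not set apart from others by their CG count. Each was picked for the most CG among its gene's starts, while the percentages rank it against all single windows. The SNRPN start is also that of SNURF, and methylation was not measured in these cells.

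SNRPN, NNAT, DLK1 and MEST rose between D0 and D15, and CDKN1C, PEG10 and MEG3 did not pass the test in that comparison. In the edgeR quasi-likelihood test over 12794 genes, genes were called at an adjusted p (Benjamini-Hochberg) under 0.01 when the log2 fold change also exceeded 0.25 in size. By that rule 26.8% of all tested genes were called higher and 26.7% lower on D15 than on D0. Of the 7 listed genes that were tested, 4 were called higher and 0 lower, with a median log2 fold change of 2.37 against 0.01 over all genes. The filter kept genes with a UMI in at least 5% of all kept cells. NNAT and DLK1 met it only through the later days, at which they are high. The count of 4 of 7 and the median of 2.37 both include these genes. Both values are therefore a description and not support for a shared direction.

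**Figure D1:**
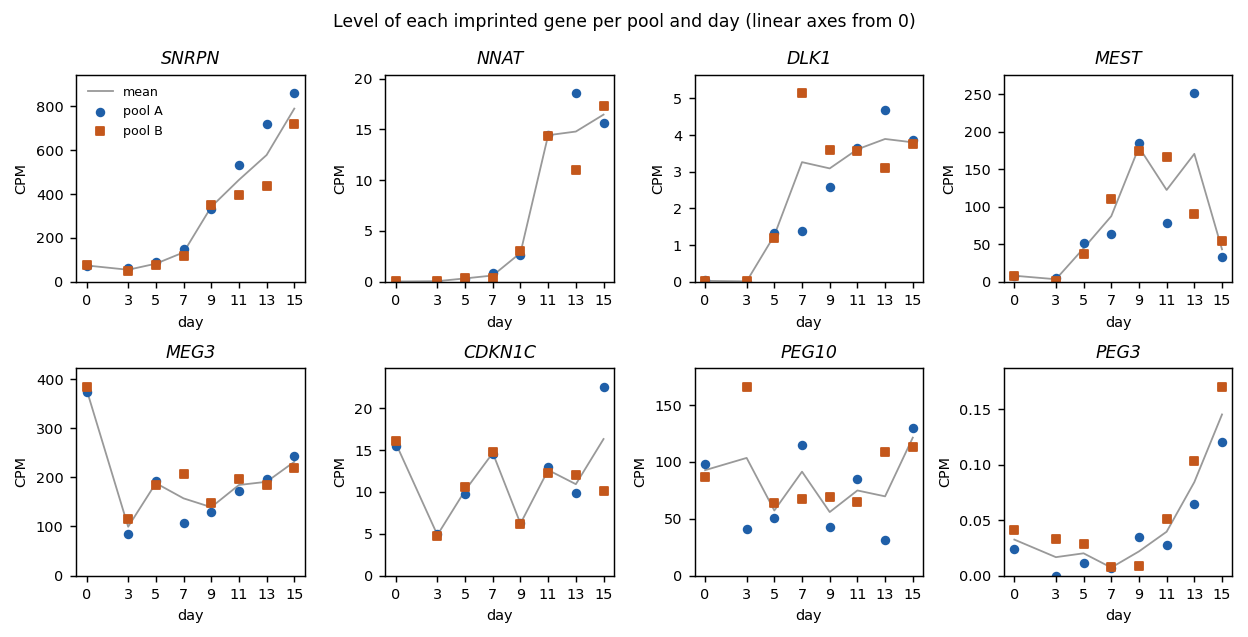
Level in CPM (vertical axes, linear from 0) against day (horizontal axes) for the 8 genes with a row, with circles for pool A, squares for pool B and a grey line through the mean of both. SNRPN climbs from D7 on to 720 and 859 CPM on D15, MEST peaks between D9 and D13, MEG3 and CDKN1C drop at D3, and the PEG10 pools of D3 and D13 lie far apart.

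SNRPN rose between D0 and D15. Its level was 72.2 and 76.3 CPM in the pools of D0, 60.4 and 48.8 on D3, 87.9 and 76.8 on D5, 150 and 117 on D7, 332 and 351 on D9, 532 and 396 on D11, 718 and 438 on D13, and 859 and 720 CPM on D15. From D3 to D11 each day lay above the one before it with no overlap of pools, and the pools of D11 and D13 overlapped. The log2 fold change from D0 to D15 was 3.35 ± 0.23 (SE, adjusted p = 9.7e-08 by edgeR), a 10.6-fold difference of mean CPM. Of the steps between adjacent days, that from D7 to D9 passed the test (log2 fold change 1.31 ± 0.22, adjusted p = 0.0015). That step missed the threshold without D7 pool B (1.16, adjusted p = 0.032), without D9 pool A (1.34, adjusted p = 0.0102) and without D9 pool B (1.29, adjusted p = 0.016).

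SNRPN was found in most cells of D15. With each cell thinned to 5000 UMIs, 30.3% ± 0.74 of D0 cells and 93.5% ± 0.75 of D15 cells had at least 1 SNRPN UMI (SD, n = 2 pools). Without thinning these shares were 81.5% ± 3.51 and 99.8% ± 0.04. Shares are given without a test. SNURF shares exons with SNRPN on the same strand, and reads that fall on exons of more than 1 gene are dropped in the counting, so the SNRPN level is uncertain by the reads lost this way; SNURF itself was at 2.95 and 1 CPM on D15. The 2 genes with the most similar course over the 16 pools were KRTCAP3 (Pearson r of log2(CPM + 1) 0.991) and CA14 (0.99), among 8575 genes compared. Pools of a day share their time in culture, and r is given here as a description.

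NNAT went from almost no UMI to a low but regular level. Its pools had 0.018 and 0.0272 CPM on D0, 0.0746 and 0.0397 on D3, 0.316 and 0.34 on D5, 0.827 and 0.402 on D7, 2.65 and 3.02 on D9, 14.5 and 14.4 on D11, 18.5 and 11 on D13, and 15.6 and 17.3 CPM on D15. Each day up to D11 lay above the one before with no overlap of its pools, and the pools of D13 overlapped those of both D11 and D15. On D0 the level rested on 7 UMIs of 313794302, against 1640 of 97996019 on D15, a 750-fold ratio of the summed rates with a 95% exact counting interval of 363 to 1869. The fitted log2 fold change was 9.40 ± 0.47 (adjusted p = 6.4e-09 by edgeR); at so few D0 counts its size depends on the prior count of the fit. Steps from D3 to D5, D7 to D9 and D9 to D11 passed the test with log2 fold changes of 2.50 ± 0.48, 2.16 ± 0.31 and 2.33 ± 0.30.

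The D3 to D5 step of NNAT (adjusted p = 0.0064) was lost without any 1 of the 4 pools (adjusted p = 0.016 without D3 pool A, 0.080 without D3 pool B, 0.049 without D5 pool A and 0.033 without D5 pool B). It was also lost where only the aliquot with more cells stood for each split pool (adjusted p = 0.024), with pool sums thinned to the smallest total (0.012) and with a stricter cell filter (0.014). The D9 to D11 step (adjusted p = 0.00064) was lost without D9 pool A (0.022) or D9 pool B (0.013). A NNAT UMI was found in 0.0081% ± 0.012 of thinned D0 cells and 6.93% ± 0.39 of thinned D15 cells (SD, n = 2 pools), and in 0.068% ± 0.026 and 35.3% ± 6.12 without thinning. The nearest courses were those of EPHX3 (r = 0.996) and SMPDL3B (r = 0.995).

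DLK1 appeared between D3 and D5. The pools held 0.036 and 0.0136 CPM on D0, 0 and 0.0199 on D3, 1.34 and 1.19 on D5, 1.39 and 5.14 on D7, 2.59 and 3.60 on D9, 3.65 and 3.58 on D11, 4.69 and 3.10 on D13, and 3.86 and 3.75 CPM on D15. A count of 0 in D3 pool A allows a level of up to 0.032 CPM (3 counts; intervals and floors cover counting error only). The step from D3 to D5 passed the test (log2 fold change 6.52 ± 0.83, adjusted p = 3.8e-04 by edgeR), as did D15 against D0 (7.11 ± 0.71, adjusted p = 2.1e-06), and no later step did. In a fit to only the 4 pools of D3 and D5 the step just missed the threshold (6.46, adjusted p = 0.0101). Without D3 pool B the D3 to D5 value was 10.16, since the remaining D3 pool had no UMI, and it is then set by the prior count. In summed UMIs DLK1 had 8 on D0 and 371 on D15, a 148-fold ratio with a counting interval of 74.6 to 347.

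The share of cells with a DLK1 UMI was small. A UMI was found in 0.019% ± 0.0037 of thinned D0 cells and 1.96% ± 0.047 of thinned D15 cells (SD, n = 2 pools), and in 0.062% ± 0.027 and 14.2% ± 6.41 without thinning. In D9 pool B, 171 of 1653 cells had a DLK1 UMI, and 1 cell alone held 86 of the pool's 405 UMIs (21.2%). In D13 pool A 1 cell held 15.2% of the UMIs, while on D15 no cell held more than 3.91%. In D7 pool B 2.44% of thinned cells had a UMI, where a random scatter of the same mean would give 4.60%, and in the D15 pools 1.93% and 1.99% had one, where it would give 2.08% and 2.11%. The variance of thinned counts over cells divided by their mean, which is 1 for counts that scatter as random draws, was 5.81 in D9 pool B, 3.26 in D7 pool B and 1.15 and 1.11 in the D15 pools. TMC6 (r = 0.959) and MDFI (r = 0.95) had the most similar courses.

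MEST rose from D3 to D5, was high until D13 and had lower values on D15. Its level was 7.92 and 8.13 CPM on D0, 5.34 and 1.31 on D3, 52 and 37 on D5, 63.8 and 111 on D7, 184 and 174 on D9, 78.3 and 166 on D11, 251 and 89.8 on D13, and 32.3 and 54 CPM on D15. The pools of D7 lay above those of D5, and from D7 to D13 each day overlapped its neighbour in the order of means. D15 lay below all of D7 to D13 and above D0. From D0 to D3 the log2 fold change was -1.35 ± 0.57 (adjusted p = 0.077 by edgeR), called only without D3 pool A (-2.59, adjusted p = 0.0070). It was 3.73 ± 0.62 from D3 to D5 (adjusted p = 0.0024 by edgeR), and that call was lost without D3 pool B (3.06, adjusted p = 0.015) or D5 pool A (3.53, adjusted p = 0.015). From D0 to D15 it was 2.37 ± 0.58 (adjusted p = 0.0031), lost without D0 pool A (adjusted p = 0.025), D0 pool B (0.025) or D15 pool B (log2 fold change 1.94, adjusted p = 0.026). The later change, -1.91 ± 0.57 from D13 to D15, had an adjusted p of 0.077 and was called by DESeq2 (0.0088) and without a filter on genes (0.0040).

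MEST was unevenly spread among cells. It was found in 3.12% ± 0.16 of thinned cells on D0 and 16.7% ± 5.0 on D15 (SD, n = 2 pools), and in 13.3% ± 1.51 and 70.5% ± 1.57 without thinning. In D13 pool A the variance over the mean was 5.06, and 12.8% of thinned cells had 3 or more UMIs. A random scatter of the same mean would place a UMI in 70.8% of these cells, and 49.7% had one. Libraries of 1 pool also differed: the aliquots of D5 pool A held 61.6 and 15.6 CPM and those of D5 pool B 78.9 and 22.2 CPM. Ratios as large were found in 0.484% and 0.638% of the genes compared in these pools, but each of the 4 values lay above both D3 pools. In the other 4 split pools the MEST ratio was 1.81 (D7 pool B), 1.40 (D9 pool A), 1.42 (D9 pool B) and 1.87 (D11 pool B), and 11.6%, 39.8%, 27.7% and 2.09% of genes had a ratio as large. P3H2 (r = 0.959) and COL26A1 (r = 0.948) were nearest in course.

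MEG3 fell at D3, and its later values lay between those of D3 and D0 in all pools but 1. Its pools had 373 and 383 CPM on D0, 84.7 and 114 on D3, 192 and 185 on D5, 107 and 207 on D7, 130 and 148 on D9, 172 and 197 on D11, 197 and 185 on D13, and 244 and 220 CPM on D15. D0 lay above every later day and D3 below all but the overlapping range of D7, whose lower pool stood at 107 CPM. From D0 to D3 the log2 fold change was -1.95 ± 0.26 (adjusted p = 1.4e-04 by edgeR), where 25.6% of all tested genes were called in either direction. The fit to only the 4 pools of these days called 0 of all genes and gave MEG3 an adjusted p of 0.013.

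For MEG3, no step between adjacent days after D3 passed the test. D15 against D0 gave -0.77 ± 0.25 (adjusted p = 0.018), past 0.05 but not past the 0.01 of the rule. It was called with no filter on genes (-1, adjusted p = 9.4e-04) and in a fit to only the 4 pools (-0.78, adjusted p = 2.3e-04). In thinned cells the share with a MEG3 UMI was 75.1% ± 0.66 on D0 and 57.5% ± 1.88 on D15 (SD, n = 2 pools), and unthinned 96.6% ± 0.20 and 90.5% ± 1.17. SLC38A2 (r = 0.947) and ERV3-1 (r = 0.915) had the nearest courses.

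CDKN1C also fell at D3, and its later values went up and down. It had 15.5 and 16.1 CPM on D0, 5 and 4.7 on D3, 9.73 and 10.6 on D5, 14.5 and 14.8 on D7, 6.28 and 6.14 on D9, 12.9 and 12.3 on D11, 9.82 and 12 on D13, and 22.5 and 10.1 CPM on D15. Up to D11 the pools of a day were close and those of D0, D3, D7, D9 and D11 did not overlap one another, while the range of D15 overlapped those of both D0 and D5. The fall from D0 to D3 passed the test (log2 fold change -1.74 ± 0.30, adjusted p = 7.2e-04 by edgeR), though not in a fit to only those 4 pools (-1.66, adjusted p = 0.012).

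The change of CDKN1C from D7 to D9 (-1.27 ± 0.29) had an adjusted p of 0.0116 and was called by DESeq2 (5.9e-04), by a stricter cell filter (0.0096), without a filter on genes (0.0025) and in the 4 pools alone (0.0036). D15 against D0 gave -0.02 ± 0.29 (adjusted p = 0.95), and its sign turned in 4 alternatives, among them 0.44 without D15 pool B. The share of thinned cells with a CDKN1C UMI was 7.80% ± 0.021 on D0 and 7.47% ± 3.79 on D15 (SD, n = 2 pools), and 31.8% ± 3.67 and 40.8% ± 23.1 unthinned. Its nearest courses were loose, SNHG23 at r = 0.798 and ARHGAP17 at r = 0.772.

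PEG10 was not called in D15 against D0, D3 against D0 or any step between adjacent days, and its pools and libraries lay far apart. The pools had 98.4 and 87.1 CPM on D0, 41.3 and 166 on D3, 50.9 and 63.5 on D5, 115 and 67.5 on D7, 42.8 and 68.9 on D9, 84.6 and 65.1 on D11, 30.9 and 109 on D13, and 130 and 113 CPM on D15. Every day overlapped its neighbour in the order of means. D15 against D0 gave a log2 fold change of 0.32 ± 0.63 (adjusted p = 0.67 by edgeR) and D3 against D0 gave 0.16 ± 0.63 (adjusted p = 0.86), the latter -1.26 without D3 pool B. In thinned cells the share with a UMI was 34.0% ± 2.56 on D0 and 36.3% ± 1.42 on D15 (SD, n = 2 pools), and 79.3% ± 0.053 and 87.1% ± 7.14 unthinned.

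PEG10 counts were also more uneven among the cells of D15. Its variance over the mean at 5000 UMIs per cell was 1.33 and 1.28 on D0 and 3.07 and 3.73 on D15, and the highest count in 1 cell was 8 and 7 on D0 and 16 and 25 on D15. The top 5% of cells held 28.5% and 29.7% of its UMIs on D0 and 39.7% and 41.4% on D15.

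Libraries made from the same pool gave different PEG10 levels. The aliquots had 35.9 and 108 CPM in D5 pool A, 101 and 50.3 CPM in D5 pool B, 163 and 40.4 CPM in D7 pool B, 114 and 34.2 CPM in D9 pool A, 110 and 35.9 CPM in D9 pool B, and 90.8 and 61 CPM in D11 pool B. The higher was 1.49 to 4.04 times the lower, where the median ratio over all genes compared was 1.12 to 1.36. Depending on the pool, 0.474% to 10.7% of genes had a ratio as large. By contrast, SNRPN differed between aliquots by 1.05 to 1.49 times and MEG3 by 1.04 to 1.76 times. The higher aliquot had the fewer cells in 5 of the 6 pools and the higher median UMIs per cell in 5 of the 6, D9 pool B being the exception in both; the part of these in the difference was not tested. PKN2 (r = 0.924) and KRIT1 (r = 0.921) followed PEG10 most closely over the pools.

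**Figure D2:**
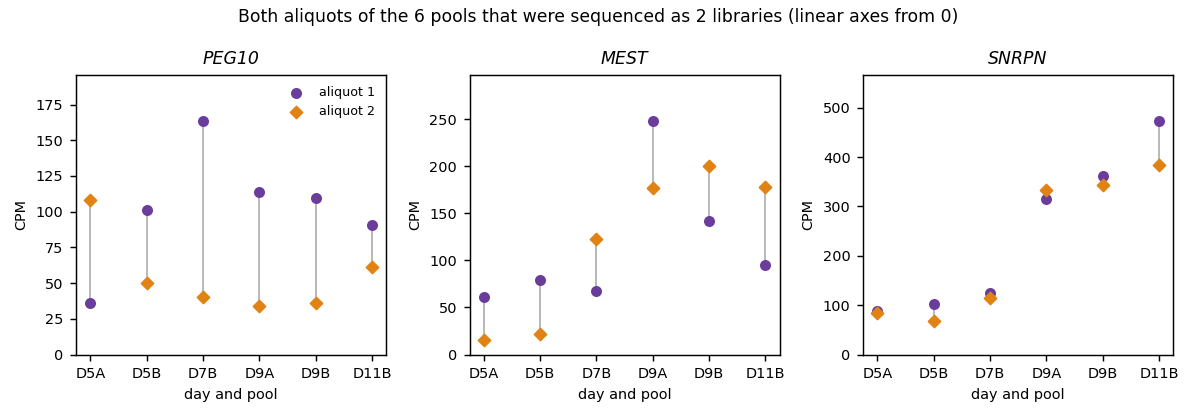
Level in CPM (vertical axes, linear from 0) in aliquot 1 (circles) and aliquot 2 (diamonds) of the 6 pools sequenced as 2 libraries, for PEG10, MEST and SNRPN. The aliquots differ 1.49 to 4.04 times for PEG10 and 1.05 to 1.49 times for SNRPN.

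PEG3 was barely detected throughout. It was detected in too few cells to pass the filter on genes, with 0 to 16 UMIs per pool and at most 0.17 CPM, in D15 pool B. Fitted without that filter it was called in none of the comparisons between days and was called higher in the developmental-marker-high cells described below (log2 difference 2.25 ± 0.65, adjusted p = 0.0098 by edgeR), on 0 to 15 UMIs per pool in those cells and 0 to 1 in the somatic-marker-high cells. Thinned shares were 0.0081% ± 0.012 on D0 and 0.024% ± 0.034 on D15 (SD, n = 2 pools), and 0.097% ± 0.046 and 0.54% ± 0.23 unthinned. A likeness of its course (r = 0.965 with MAPKAPK5-AS1 and 0.96 with APOA1) rests on these few UMIs. The other genes listed for its cluster, ZIM2, USP29 and MIMT1, had 0 to 1 UMIs on D0 and 0 on D15.

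Between adjacent days the calls gathered around a few steps. The comparisons share pools with their neighbours, and so their values are given side by side. From D0 to D3, 2 of the 7 tested genes were called, both lower, which is about the 25.6% of all genes called there. From D3 to D5 3 were called, all higher (MEST, DLK1 and NNAT), where 3.56% of all genes were called. In a fit to only the 4 pools none of the 7 was, and that fit called 27 of the 12794 genes higher and 0 lower. NNAT and DLK1 passed the filter on genes only through the later days, at which they are high. Counts of steps that hold either gene are therefore a description. From D5 to D7 0 were called (2.06% of all genes), from D7 to D9 2 (SNRPN and NNAT; 7.37%), and from D9 to D11 NNAT alone (4.09%). From D11 to D13 and D13 to D15 edgeR called 0 of the 7, with 0.117% and 0.086% of all genes called, so these last steps hold few calls of any gene. By edgeR, the number of the 7 with an unadjusted p below 0.05 was 3 from D5 to D7 (SNRPN, NNAT and DLK1). It was 0 from D11 to D13 and 2 from D13 to D15 (SNRPN and MEST). Of all 12794 genes, 2064, 2074 and 2962 had such a p in these 3 steps. DESeq2 called 0, 0 and 1 of the 7. Over all genes it called 461 higher and 149 lower, 235 and 238, and 179 and 475.

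In several clusters some neighbours of a listed gene went another way than that gene, while others went the same way. A list of 61 other imprinted genes was drawn up by locus from textbook knowledge. Whether each is imprinted in these cells was not tested. Of the 61, 54 had a row and 30 were tested for a change of level. Of these 30, 7 were called higher on D15 than on D0, 13 lower and 10 not called. Their median log2 fold change was -0.41 against 0.01 over all genes. Those lower stand at a share above the 26.7% of all genes, and those higher just below the 26.8%, as counts and without a test of the list.

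In the SNRPN cluster, PWAR6, a noncoding RNA, stood at 3.06 and 3.51 CPM on D0 and 80.3 and 76.2 CPM on D15 (log2 fold change 4.51 ± 0.46, adjusted p = 2.4e-06). NDN, which codes for necdin, a growth suppressor of neurons, went the other way, from 74.3 and 65.9 CPM to 27.1 and 25.8 CPM (-1.47 ± 0.29, adjusted p = 6.0e-04). ATP10A, a lipid transporter at the far end of the region, fell by 1.84 ± 0.24 on the log2 scale. UBE3A, the ubiquitin ligase of Angelman syndrome, had 33.4 and 33.9 CPM on D0 and 58 and 61 CPM on D15, and its change of 0.76 ± 0.25 (adjusted p = 0.018) did not pass. The paternally expressed genes SNRPN and NDN of this 1 cluster thus ended at 10.6-fold higher and 2.65-fold lower mean levels.

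At 14q32 MEG9, a neighbour of MEG3 on the same strand, also fell at D3. It fell by 1.67 ± 0.29 on the log2 scale from D0 to D3 (adjusted p = 7.1e-04), from 2.2 and 2.68 CPM to 0.735 and 0.821 CPM, and stood at 2.74 and 2.19 CPM on D15. MEG8 had 1.18 and 1.64 CPM on D0 and 2.89 and 2.27 CPM on D15 and was not called. DIO3, an enzyme that inactivates thyroid hormone at the far side of the cluster, had no UMI in either D0 pool, which allows up to 0.018 and 0.02 CPM, and 3.53 and 5.49 CPM on D15. RTL1 had at most 8 UMIs a day on D0 and D15.

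Around PEG10, SGCE and PPP1R9A parted. SGCE, which shares its start region with PEG10 in the opposite direction and codes for a sarcoglycan, dropped from 60.9 and 57.6 CPM to 7.99 and 9.55 CPM (-2.82 ± 0.31, adjusted p = 5.6e-06). PPP1R9A, a neurabin that binds actin, went from 0.156 and 0.143 CPM to 17.2 and 15.8 CPM (6.71 ± 0.59, adjusted p = 7.5e-07). COPG2 beside MEST had 8.28 and 7.84 CPM on D0 and 7.96 and 7.56 CPM on D15, and BLCAP around NNAT had 25.9 and 26.6 CPM and 18.6 and 24.7 CPM; neither was called. NNAT thus rose within a host gene whose change of -0.33 on the log2 scale did not pass the test.

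At 11p15 the other tested genes of the CDKN1C cluster were lower on D15. PHLDA2, a growth-restraining gene of placenta, first rose from 134 and 141 CPM on D0 to 333 and 330 CPM on D3 (1.24 ± 0.24, adjusted p = 0.0016), while CDKN1C fell, and ended at 33.3 and 44.1 CPM (-1.88 ± 0.25, adjusted p = 2.3e-05). KCNQ1OT1, the long antisense RNA whose start carries the control region of the cluster, had 97.1 and 104 CPM on D0 and 44.8 and 37.2 CPM on D15 (-1.36 ± 0.38, adjusted p = 0.0073). SLC22A18 and OSBPL5 fell by 2.29 ± 0.28 and 2.74 ± 0.42 on the log2 scale. In the neighbouring cluster of H19, the fetal growth factor IGF2 had 8.82 and 10.6 CPM on D0, 15.1 and 45.1 CPM on D7 and 5.09 and 4.04 CPM on D15, and its change of -1.15 ± 0.45 (adjusted p = 0.039) did not pass.

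The remaining neighbours were too rarely detected to be tested, and their values are given without a test. MAGEL2, a ubiquitin ligase partner beside NDN, had 0.096 and 0.0883 CPM on D0 and 1.42 and 1.3 CPM on D15. KCNQ1, which codes for a potassium channel, had no UMI on D0 and 0.723 and 0.679 CPM on D15. CPA4 beside MEST, which codes for a carboxypeptidase, had 1.66 and 1.39 CPM on D0 and 0.0904 and 0.278 CPM on D15, and SLC22A18AS, which lies antisense to SLC22A18, had 1.54 and 1.71 CPM and 0.271 and 0.401 CPM. KLF14, MESTIT1, IGF2-AS, INS, KCNQ1DN, MKRN3, NPAP1 and PWRN1 were below 0.3 CPM in each pool of D0 and D15.

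**Figure D3:**
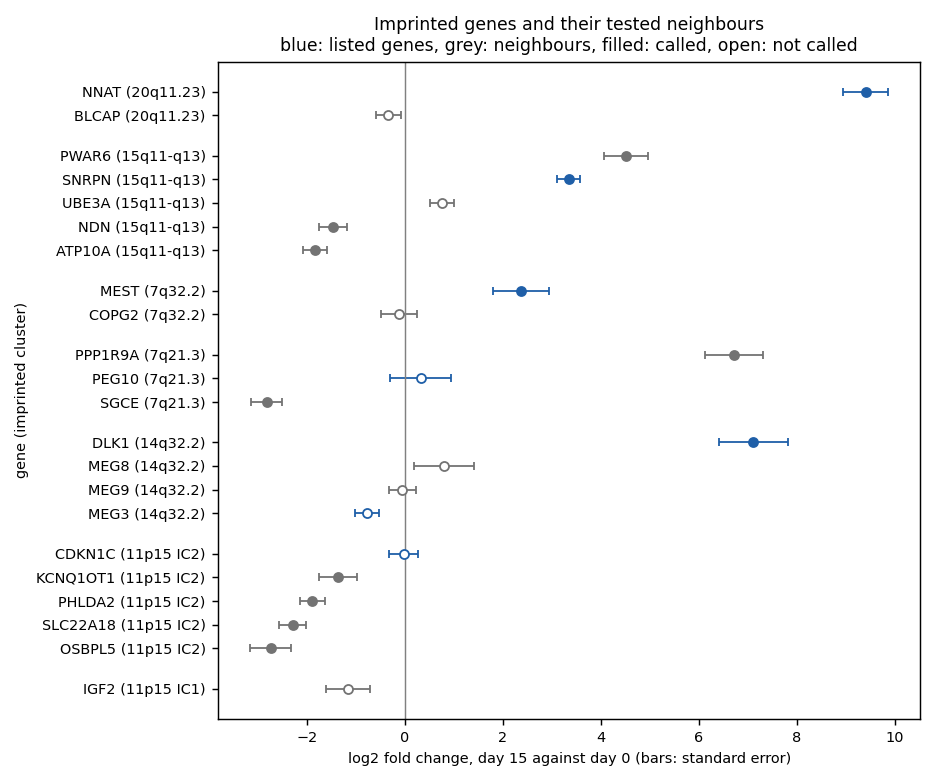
Log2 fold change between D15 and D0 (horizontal axis, bars for the standard error) for the listed genes (blue) and their tested neighbours (grey), grouped by imprinted cluster on the vertical axis, with filled points for called genes and open points for genes not called. Several clusters hold genes on both sides of 0, such as SNRPN at 3.35 and NDN at -1.47.

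Beyond these clusters, NLRP2 and ERAP2 were among the 4 of the 30 tested other imprinted genes with the largest called log2 fold changes, the other two being PPP1R9A and PWAR6. NLRP2, of the inflammasome family and active in oocytes and early embryos, had 0 and 0.0068 CPM on D0, which is 1 UMI in all, and 13.3 and 8.39 CPM on D15, so that the size of its fitted change depends on the prior count. ERAP2, an aminopeptidase that trims peptides for antigen presentation, fell from 15.1 and 15.5 CPM to 0.241 and 0.509 CPM (-5.32 ± 0.43, adjusted p = 3.0e-07).

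Cells of D9 to D15 ranged from high somatic to high developmental markers, and 4 listed genes differed between these ends. Cells were put in a developmental-marker-high or a somatic-marker-high class by the sign of the mean log2(CPM + 1) of 13 developmental minus 14 somatic genes, none of which is an imprinted gene listed here. This cuts 1 continuous score, and 1.75% to 24.7% of cells per pool lay within 1 of the limit. The developmental-marker-high share was 35.2% and 40.8% on D9, 40.9% and 52.3% on D11, 62.4% and 73.7% on D13, and 89% and 86% on D15, and in each of these 8 pools these cells had the higher median UMI count. UMIs were summed per pool and class, and classes were compared with edgeR within the 8 pools. In that fit 35% of all tested genes were called higher in the developmental-marker-high cells and 32.3% lower, so that most genes differ and a call alone sets no gene apart. Of the 7 listed genes, 3 were called higher and 1 lower. NNAT and DLK1 are among the 3, and they passed the filter on genes only through the later days. These classes come from such days, so the count is a description.

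SNRPN was higher in the developmental-marker-high cells of all 8 pools, with 489 to 923 CPM in them and 173 to 337 CPM in the somatic-marker-high cells, and the ranges did not overlap. Its log2 difference was 1.56 ± 0.12 (adjusted p = 3.8e-06 by edgeR). In D0 cells it had 72.2 and 76.3 CPM. Free RNA from other cells and doublets can carry UMIs between the classes, and their part in the level of either class was not tested. NNAT was also higher in 8 of 8 pools, with 4.56 to 22.7 CPM against 0.728 to 10 CPM (1.47 ± 0.22, adjusted p = 1.4e-04). On D9 its developmental-marker-high cells had 5.47 and 4.56 CPM and the somatic-marker-high cells 0.728 and 1.75 CPM; on D11 both classes were higher, at 18.8 and 19.3 CPM against 10 and 6.44 CPM.

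MEST went the other way in all 8 pools. Developmental-marker-high cells had 122, 102, 60.9, 123, 151, 65.9, 24.9 and 42.3 CPM, in the order from D9 pool A to D15 pool B, and somatic-marker-high cells had 227, 233, 96.3, 236, 481, 186, 107 and 156 CPM. The log2 difference was -1.26 ± 0.16 (adjusted p = 5.2e-05 by edgeR). From D13 to D15 the values were lower in both classes, from 151 and 65.9 to 24.9 and 42.3 CPM and from 481 and 186 to 107 and 156 CPM, and this change within the classes was not tested.

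DLK1 was higher in the developmental-marker-high cells of 6 of 8 pools, with 3.09 to 5.2 CPM against 1.94 to 3.93 CPM. Its log2 difference of 0.59 ± 0.16 (adjusted p = 0.0073 by edgeR) was lost on leaving out D9 pool A, D11 pool A, D11 pool B, D13 pool A, D15 pool A or D15 pool B in turn, with 0.47 to 0.59 and adjusted p of 0.015 to 0.027. It was lost too without a filter on genes (0.53, adjusted p = 0.015) and with classes set from the even-placed markers only (0.75, adjusted p = 0.030). MEG3 had 153 to 239 CPM against 115 to 287 CPM, higher in the developmental-marker-high cells of both D9 pools and lower in those of D11, D13 and D15, with a log2 difference over all of 0.04 ± 0.09 (adjusted p = 0.68). This fitted sign goes against the CPM values of 6 of the 8 pools and turned in 4 alternatives, so no direction is given for MEG3. PEG10 (-0.09 ± 0.12, adjusted p = 0.48) and CDKN1C (-0.24 ± 0.15, adjusted p = 0.16) did not pass. PEG10 was higher in the developmental-marker-high cells of both D11 pools (90.9 against 78.1 and 70.1 against 57.1 CPM). It was lower in those of both D13 and both D15 pools, with 125 against 182 and 105 against 183 CPM on D15. On D9 its pools went different ways.

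**Figure D4:**
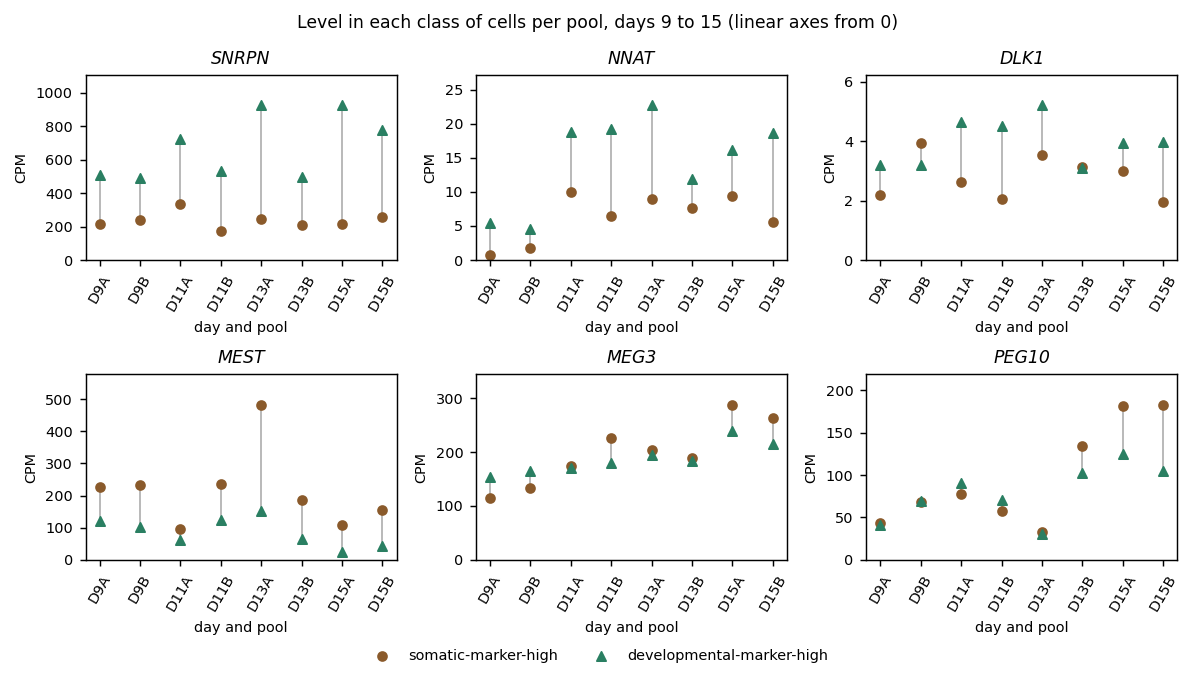
Level in CPM (vertical axes, linear from 0) in somatic-marker-high cells (circles) and developmental-marker-high cells (triangles) of each pool of D9 to D15 (horizontal axes). SNRPN and NNAT are higher in the triangles and MEST in the circles in all 8 pools, while MEG3 changes order after D9.

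Of the 30 other imprinted genes tested, 10 were higher and 16 lower in the developmental-marker-high cells, against 35% and 32.3% of all genes, with a median log2 difference of -0.48 against 0.04 over all genes. PWAR6 (1.81 ± 0.20) and PPP1R9A (2.2 ± 0.21) were higher, as they were on D15 against D0. IGF2 was lower (-3.67 ± 0.35, adjusted p = 9.8e-06), and so were PHLDA2 (-2.71 ± 0.18), KCNQ1OT1 (-1.32 ± 0.10) and SGCE (-0.95 ± 0.08). Neighbours within a cluster again went different ways: NDN was lower (-0.80 ± 0.20, adjusted p = 0.0043) where SNRPN was higher, and COPG2 was higher (0.67 ± 0.10, adjusted p = 1.0e-04) where MEST was lower. MEG8 (0.64 ± 0.17, adjusted p = 0.0059) and MEG9 (0.76 ± 0.10, adjusted p = 8.7e-05) were called higher, while MEG3 beside them was not called.

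PEG10, which was not called in the comparisons of days or of those classes, had higher levels in cells with mesendoderm markers. Mesendoderm is the progenitor of mesoderm and endoderm, and its 8 listed genes, among them EOMES, MIXL1 and SOX17, had a summed level of 0.138 to 0.143 CPM on D0, 163 to 227 CPM on D11 and 109 to 140 CPM on D15. Cells of D11 to D15 were split by whether they had a UMI of at least 3 of the 8 genes, a split chosen after the data were seen and therefore given with no test. Cells with 3 or more numbered 61 to 1195 per pool (7.46% to 40.9%). PEG10 had 91.2 against 78.2 CPM in D11 pool A, 159 against 56 in D11 pool B, 105 against 24.5 in D13 pool A, 169 against 90.6 in D13 pool B, 353 against 104 in D15 pool A, and 361 against 91 CPM in D15 pool B, where the first value is that of cells with 3 or more. It was higher in 6 of 6 pools, by 1.17 to 4.27 times, and 10.9% of the 12794 genes were higher in every pool.

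None of the other listed genes was higher in 6 of 6 pools. MEG3 was lower in cells with 3 or more mesendoderm genes in 6 of 6 pools (0.60 to 0.90 times), as were 7.4% of the 12794 genes. SNRPN was higher in 2 of 6 (0.56 to 1.22 times), MEST in 5, CDKN1C in 4, and NNAT and DLK1 in 3. A cell with more UMIs reaches 3 genes more easily, and cells with 3 or more had median UMI counts of 67705 against 48679.5 in D11 pool A but 24451.5 against 30333 in D15 pool B; the part of depth was not tested.

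**Figure D5:**
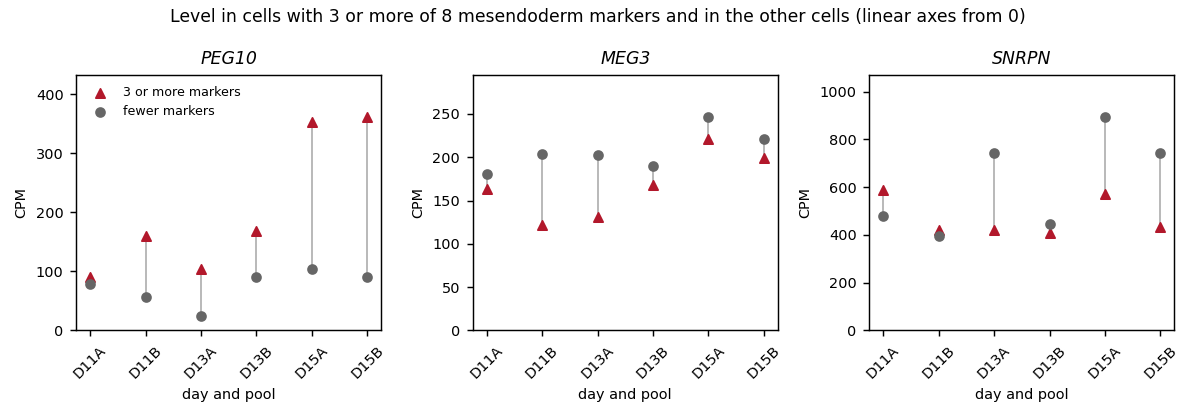
Level in CPM (vertical axes, linear from 0) in cells with a UMI of 3 or more of 8 mesendoderm genes and in cells with fewer, for each pool of D11 to D15 (horizontal axes). PEG10 is higher in the cells with 3 or more in all 6 pools and MEG3 lower in all 6.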

How the data were processed

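Droplet 3′ libraries of BJ cells were processed by the authors with Cell Ranger 2.2 on hg38, and the deposited values are counts of UMIs per gene and cell, with no normalization. Barcodes were kept that had 1000 genes or more and no more than 10% of UMIs from mitochondrial genes, UMIs were summed per pool (aliquots added), and genes with a UMI in at least 5% of kept cells were tested with edgeR 4.0.16 in R 4.3.3 (TMM, quasi-likelihood, all 16 pools in 1 fit, no block). CPM is per 1000000 UMIs of all genes. Errors are SD over 2 pools or SE. The SE, or standard error, of an edgeR log2 fold change is its size divided by the square root of its F statistic. Doublets were not called. Shares used cells thinned to 5000 UMIs, and no cell had fewer. Pool letters showed no pairing common to all days (28 pairs of days, r of A minus B differences from -0.45 to 0.82, median -5.3e-06). Some pairs of days did share such differences.

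The 8 listed genes with a row were described, and of other imprinted genes those neighbouring a listed gene and, among those tested, the 4 with the largest called change between D15 and D0. The listed genes, gene lists and tests were chosen with earlier results of these data known. Alternatives were DESeq2 1.42.0, its size factors, no gene filter, the block, other cell filters, thinned sums and pools left out in turn; use of the larger aliquot only was added after the data were seen. On simulated counts with 200 changed genes among 12794, the D15 against D0 test recovered 153 of them, 4 of 50 at the smallest fold. These shares hold for the simulated setting only. Positions come from GENCODE v44.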

Additional observations from a re-analysis of the deposited data

How the results depend on the processing

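Of 404 alternative values of single genes, 350 kept their direction and their side of the threshold, 30 lost the call (20 of them on leaving out a pool), 13 gained one and 11 turned in sign, all 11 of genes not called. Fitted to only the 4 pools compared, 0 listed genes were called from D0 to D3 and 0 from D3 to D5 (2 and 3 in the fit to all pools), and 2 from D9 to D11 (1), which adjusted p below 0.05 also gave (2). Of all 12794 genes these fits called 0 from D0 to D3, 27 higher and 0 lower from D3 to D5, and 746 higher and 321 lower from D9 to D11. The fit to all pools called 1671 higher and 1609 lower, 409 and 46, and 373 and 150. From D13 to D15, 1 was called without a filter on genes and 1 by DESeq2 (0). Over all genes these 2 settings called 23 higher and 508 lower of 29281, and 179 and 475 of 12794. With a replicate block for the pool letter the counts stayed at 4, 2, 3, 0, 2, 1, 0 and 0 for D15 against D0, D3 against D0 and the later steps. The letters showed no pairing common to all days, and the block changed no call. Leaving out 1 pool at a time, which leaves a lone pool assumed to vary like the others, gave 3 to 4 genes for D15 against D0, 2 to 3 for D0 to D3, 1 to 2 for D3 to D5, 1 to 2 for D7 to D9, 0 to 1 for D9 to D11, 0 for the other steps and 3 to 4 for the classes.

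For CDKN1C on D15 against D0, the values that turned in sign included 0.011 with DESeq2 size factors, 0.0031 with the larger aliquot only and 0.011 by DESeq2. Without a pool its values ranged from -0.69 to 0.44, and 0.44 had turned. For PEG10 the values that turned included -0.074 with the stricter cell filter from D0 to D3, and 0.029 between the classes without cells near the limit. Without a pool its D0 to D3 values ranged from -1.26 to 0.86, and -1.26 had turned. For MEG3 between the classes the values that turned included -0.018 without a filter on genes and -0.060 with the even-placed markers. Without a pool its values ranged from -0.027 to 0.069, and the negative ones had turned. The cause was not tested.

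In simulated D15 against D0 counts, with 200 changed genes among 12794, 4 of 50 genes that changed 2-fold were found. In the data 3423 genes were called higher and 3413 lower. With so many more calls the same adjusted p is met at a larger unadjusted p, so the simulated share does not carry over. Levels of NNAT, DLK1 and PEG3 on D0 and D3 rest on 0 to 7 UMIs per pool. Counts do not show the parental allele.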

Other observations

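MEG3 differed with markers of proliferation. Cells with no UMI of the proliferation genes MKI67 and TOP2A had a higher MEG3 level than cells with both in 15 of 15 pools that held at least 50 cells of both kinds (D15 pool A, with 28 negative cells, was left out), by 1.04 to 3.38 times (median 1.75), and 12.2% of the 12794 genes were higher in every one of these pools. CDKN1C, the cyclin-dependent kinase inhibitor, was higher in the negative cells of 12 of 15 pools (median ratio 1.56) and MEST in 12 of 15 (1.35). DLK1 was higher in them in 8 of 15 pools and NNAT in 3. SNRPN was higher in the negative cells of all 6 pools of D0 to D5 (1.17 to 1.72 times) and lower in the 9 later pools (0.34 to 0.80 times). PEG10 was lower in them in the 12 pools of D0 to D11 (0.52 to 0.84 times) and higher in the 3 pools of D13 and D15 (1.04 to 1.43 times). The split was chosen after the data were seen, and no test was made. A cell with fewer UMIs lacks both genes more easily. The paper describes its developmental clusters as highly cycling, so from D9 the split overlaps the marker classes above. The part of depth and of these classes was not tested.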
